A study of Mus musculus with 24 samples.

Results

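The genes described here are the nuclear-encoded subunits of respiratory complexes II to V and cytochrome c, measured in the hippocampus of FoxO6 mutant and wild type (WT) mice. They were chosen by symbol from the annotation of the array platform: Sdha to Sdhd, symbols beginning with Uqcr, Cyc1, Cycs, the cytochrome c oxidase families Cox4 to Cox8, and symbols beginning with Atp5. Of the 19938 genes with a probe of their own, 48 matched and 47 were kept. Uqcrh was left out because it lies close to Foxo6 on the chromosome, and 0 pseudogenes were among the matches. By role, 4 genes encode complex II, 8 complex III, 1 cytochrome c, 10 the general subunits of complex IV, 7 isoforms of complex IV subunits known from other tissues, 5 the F1 part of ATP synthase and 12 its Fo part and stalk. Cox7c, another subunit of complex IV, is not among them, since its 3 probes also carry the symbol of a second gene.

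RNA was hybridised to 24 Affymetrix Mouse Gene 1.0 ST arrays, 6 in each of 4 groups. Genotype and state define the groups. All mice were males aged 8 to 9 weeks, and their strain is given as C57BL/6J-129sv, a mixed background. WT mice are FoxO6 +/+ and mutant mice FoxO6 -/-, labelled FoxO6 null; the labels do not say which part of the gene the mutant allele lacks. Basal mice lived alone in their cages for at least 3 days before the tissue was taken. Mice of the learning groups were handled every day, were placed in the empty arena 24 h before the task, had 10 min with a pair of identical objects and were killed 60 min later. The labels thus describe housing for the basal mice, and handling and the task for the learning mice. What each of these adds to a difference between the states cannot be told apart. No array batch or scan date is named, so array processing cannot be told apart from state either. The labels call each array a biological replicate without saying whether animals were pooled.

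Complex II (succinate dehydrogenase) passes electrons from succinate to ubiquinone, complex III (the cytochrome bc1 complex) passes them on to cytochrome c, and complex IV (cytochrome c oxidase) hands them to oxygen. Complexes III and IV pump protons across the inner mitochondrial membrane, and complex V (ATP synthase) lets them flow back through its Fo part while its F1 part makes ATP. Complex II is made wholly of nuclear-encoded subunits, whereas complexes III and IV and the Fo part also hold subunits encoded by mitochondrial DNA. Neurons draw most of their ATP from this system, much of it to restore ion gradients after synaptic activity.

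The Foxo6 probe measured 7.03 ± 0.20 (SD, n = 6) in WT and 6.30 ± 0.16 in mutant basal hippocampus on the log2 scale, a difference of −0.73 (adjusted p = 0.000128), and −0.63 after learning (adjusted p = 0.000833), in the direction of the labels. Median signals of the arrays lay between 6.16 and 6.30. All 12 hippocampal neuron markers on a fixed list had a mean above the array median in every group. Markers of the choroid plexus, an epithelium that lies beside the hippocampus, varied between arrays of a group. The log2 of the summed signal was taken over the 16 of 17 markers measured. It ranged from 10.30 to 12.52 in WT basal and 11.61 to 12.46 in mutant basal arrays. After learning it ranged from 10.29 to 11.07 in WT and 10.31 to 12.19 in mutant arrays. These ranges overlapped, except between mutant basal and WT learning arrays. WT basal arrays 4 to 6 had the lowest Ttr of their group (8.80, 9.64 and 9.17, against 11.65 to 12.11 in arrays 1 to 3). The summed signals of the neuron, interneuron, astrocyte, oligodendrocyte, microglia and endothelial lists overlapped between all groups; of the blood list 1 of 7 markers was measured. Single markers of these lists were called higher or lower after learning (limma, adjusted p below 0.05). In WT and mutant, 5 and 5 of 12 hippocampal neuron markers were lower (3 and 2 higher; medians −0.05 and −0.02), as were 4 and 5 of 8 astrocyte markers (2 and 1 higher; −0.12 and −0.17) and 2 and 4 of 7 endothelial markers (1 and 1 higher; −0.08 and −0.24). Of 8 interneuron markers 4 and 3 were higher and 3 and 3 lower, of 7 oligodendrocyte markers 2 and 3 higher and 2 and 2 lower, and of 7 microglia markers 4 and 3 higher and 1 and 1 lower.

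After the learning task, most of these genes had more RNA than at basal, in WT and in mutant mice alike, while 4 had less. In WT hippocampus 29 of the 47 genes were higher and 4 lower at an adjusted p under 0.05, and 14 were not called. In the mutant 30 were higher, 4 lower and 13 not called. These counts stand against a large background. Of all 19938 genes, 43.3% were called in WT (25.1% higher and 18.2% lower) and 41.3% in the mutant (22.6% higher and 18.7% lower). The share called higher among the 47 was 61.7% in WT and 63.8% in the mutant, and the share called lower 8.51% in each. Dim genes are called less often: among the 9969 genes with a mean above the median of all genes, to which 40 of the 47 belong, 35.7% were higher and 29.7% lower in WT, and 32.7% and 31.1% in the mutant. The median difference of the 47 was 0.24 (log2, learning minus basal) in WT and 0.24 in the mutant, against 0.03 over all genes in each. The lowest learning array lay above the highest basal array for 21 genes in WT and 19 in the mutant; the same holds for 13.8% and 10.9% of all genes. In bulk tissue, fewer cells of a type and less RNA per cell cannot be told apart.

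The same genes carried these counts in both genotypes. Of the 47, 28 were called higher in WT and mutant (19% of all genes were), 4 were called lower in both (15.7% of all genes), 3 were called in 1 genotype and 12 in neither. The 4 that fell are Sdhc, Cox4i1, Cox5b and Cox4i2. With WT basal arrays 4 to 6 left out, 26 were higher and 2 lower in WT, with 36.7% of all genes called. Choroid plexus markers fell too after learning by their medians (−0.21 in WT and −0.23 in the mutant). Of the 16, 1 was called lower in WT (6.25%, against 18.2% of all genes) and 5 in the mutant (31.2%, against 18.7%). Some astrocyte, endothelial and neuron markers given above also fell. The part of any of these markers in the difference was not tested.

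**Figure D1:**
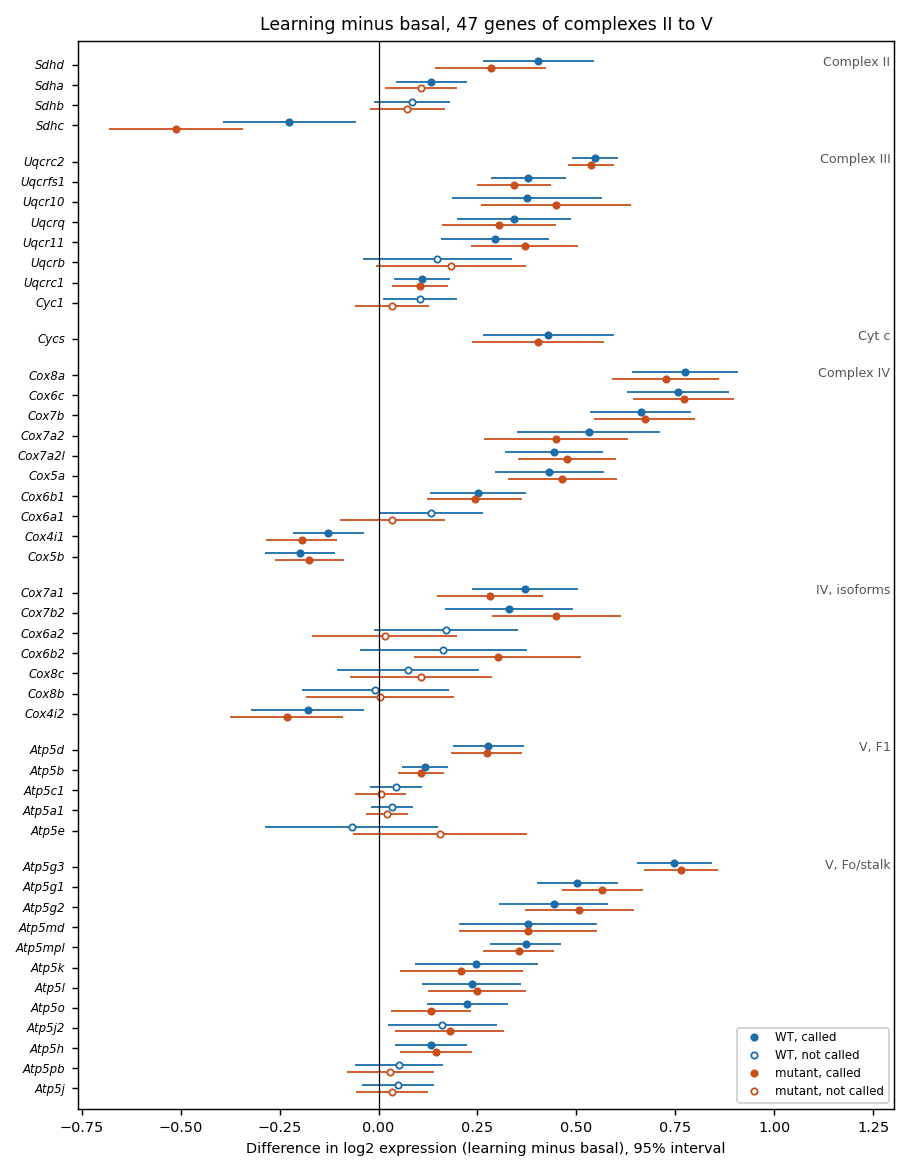
Difference in log2 expression, learning minus basal, for each of the 47 genes (rows, grouped by complex) in WT (blue) and mutant (orange) mice; points are estimates from 6 arrays a group, lines are 95% confidence intervals, and filled points were called at an adjusted p under 0.05. Most points lie to the right of 0 in both colours, with Sdhc, Cox4i1, Cox5b and Cox4i2 filled on the left.

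Promoter sequence was at hand for 35 of the 47 genes, as RefSeq windows of 250 bases before to 50 after the annotated start (GRCm38.p6). Both strands were searched for exact matches to the palindromic core of the site of nuclear respiratory factor NRF1 (its letters are those in capitals in Atp5g2); CCGGAAG, the core bound by ETS factors such as GABPA; AAGATGGC, a site of YY1; and GTAAACA, a core of the forkhead (FoxO) site. None of these motifs contains another. The NRF1 letters were found in 4 of the 35 windows (11.4%), against 1.07% of 27025 genes, and the ETS letters in 12 (34.3%, against 9.93%). The YY1 letters were found in 3 (8.57%, against 3.19%) and the FoxO letters in 1, that of Cox7a2 (2.86%, against 4.05%). Of the 24 genes with a window that rose in both genotypes, 3 held the NRF1 letters, 8 the ETS letters, 0 the YY1 letters and 1 the FoxO letters. Genes called in neither genotype held matches too: Cox6a1 (NRF1 and ETS), Atp5e and Sdhb (ETS), Atp5j (ETS and YY1) and Atp5pb (YY1). Whether a match goes with the rise was not tested. A match describes the sequence and is not shown here to be a binding site. The 250 bases before the start of 5 genes are printed below, read 5′ to 3′ on the gene's strand with the matches in capitals. They were chosen after the values were seen. Atp5g2, which rose, has an NRF1 match. Uqcr11 and Cox6b1, which rose, have an ETS match (in Cox6b1 on the opposite strand, so it reads CTTCCGG). Cox7b, which rose, and Cox5b, which fell, have none of the 4 motifs.
Atp5g2 (chr15:102671048-102671297, minus strand): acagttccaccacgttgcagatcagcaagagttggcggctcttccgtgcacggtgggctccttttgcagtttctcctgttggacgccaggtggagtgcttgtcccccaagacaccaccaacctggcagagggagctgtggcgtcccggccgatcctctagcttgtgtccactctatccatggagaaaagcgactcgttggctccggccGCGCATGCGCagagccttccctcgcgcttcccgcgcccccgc
Uqcr11 (chr10:80406822-80407071, minus strand): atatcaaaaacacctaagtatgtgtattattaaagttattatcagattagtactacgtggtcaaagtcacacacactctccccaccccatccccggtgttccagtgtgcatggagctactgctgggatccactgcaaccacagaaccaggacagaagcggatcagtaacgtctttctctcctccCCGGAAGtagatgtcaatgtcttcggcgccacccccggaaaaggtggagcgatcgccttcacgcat
Cox6b1 (chr7:30626115-30626364, minus strand): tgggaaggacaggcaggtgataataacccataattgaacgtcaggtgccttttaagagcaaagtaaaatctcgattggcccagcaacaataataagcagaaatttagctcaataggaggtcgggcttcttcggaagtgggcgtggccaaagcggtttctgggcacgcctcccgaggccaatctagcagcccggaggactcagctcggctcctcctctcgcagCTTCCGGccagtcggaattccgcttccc
Cox7b (chrX:106015450-106015699, plus strand): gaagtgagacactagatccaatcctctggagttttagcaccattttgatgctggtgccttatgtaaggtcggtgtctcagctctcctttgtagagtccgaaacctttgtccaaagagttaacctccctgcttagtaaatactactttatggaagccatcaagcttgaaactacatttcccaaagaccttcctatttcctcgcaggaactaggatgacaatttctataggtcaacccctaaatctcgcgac
Cox5b (chr1:36691237-36691486, plus strand): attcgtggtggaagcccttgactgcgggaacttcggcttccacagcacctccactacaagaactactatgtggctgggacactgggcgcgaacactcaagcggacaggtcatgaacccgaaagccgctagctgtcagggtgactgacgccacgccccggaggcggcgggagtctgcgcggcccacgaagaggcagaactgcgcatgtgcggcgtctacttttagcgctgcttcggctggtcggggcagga

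In complex II, 2 genes rose and 1 fell in WT, and 1 rose and 1 fell in the mutant. Sdhd, a membrane anchor, measured 8.68 to 9.02 (median 8.88) in WT basal arrays and 9.09 to 9.38 (median 9.27) after learning, with no overlap, a rise of 0.40 (SE 0.0687, 1.32-fold, adjusted p = 1.56e-05). In the mutant it measured 8.86 to 8.96 (median 8.94) at basal and 9.00 to 9.50 (median 9.16) after learning, a rise of 0.28 (adjusted p = 0.00117). Sdhc, the partner of Sdhd in the membrane anchor, went the other way. Mutant arrays fell from 10.41 to 10.85 (median 10.62) to 9.79 to 10.21 (median 10.16), again with no overlap, by −0.51 (SE 0.0826, 0.701-fold, adjusted p = 7.15e-06). WT arrays ranged from 10.21 to 10.47 (median 10.40) at basal and from 9.80 to 10.39 (median 10.14) after learning, so the groups overlapped, with a difference of −0.23 (adjusted p = 0.0276). The WT call of Sdhc was lost in 5 of the 12 fits that left out 1 WT array (basal 1, 3 or 4, or learning 1 or 5), with an adjusted p of up to 0.106, and without WT basal arrays 4 to 6 (−0.22, adjusted p = 0.114). Sdha, the flavoprotein that oxidises succinate, rose by 0.13 in WT (adjusted p = 0.0149) and differed by 0.11 in the mutant (adjusted p = 0.0518); without WT basal array 1 or learning array 5 its WT call was lost. Sdhb, the iron-sulphur subunit, differed by 0.08 in WT (95% interval −0.01 to 0.18) and 0.07 in the mutant (−0.02 to 0.17), and neither was called.

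In complex III, 6 of 8 genes rose in WT and 6 in the mutant, 0 fell, and the median differences were 0.32 and 0.32. Uqcrc2, a core protein that faces the matrix, had the smallest adjusted p of the 47 genes. Its arrays lay between 10.99 and 11.09 (median 11.01) in WT basal and 11.52 and 11.63 (median 11.59) in WT learning mice, a rise of 0.55 (SE 0.0281, 1.46-fold, adjusted p = 2.76e-15). In the mutant they lay between 10.99 and 11.08 (median 11.05) and between 11.54 and 11.64 (median 11.57), a rise of 0.54 (adjusted p = 3.08e-15). The arrays of the 2 states stood far apart in both genotypes, and the genotypes overlapped within each state. Its partner core protein Uqcrc1 rose less, by 0.11 in WT (adjusted p = 0.0107) and 0.11 in the mutant (adjusted p = 0.0156; lost without mutant learning array 6). The Rieske iron-sulphur protein Uqcrfs1, which carries electrons toward cytochrome c1, measured 8.58 to 8.85 (median 8.73) in WT basal and 9.04 to 9.17 (median 9.08) in WT learning arrays. Its rise was 0.38 in WT (adjusted p = 7.19e-08) and 0.34 in the mutant (adjusted p = 4.14e-07), without overlap in either. The small subunits Uqcr10, Uqcrq and Uqcr11 rose by 0.29 to 0.37 in WT and by 0.30 to 0.45 in the mutant. Cytochrome c1 itself, Cyc1, was not called (0.11, adjusted p = 0.0622 in WT; 0.03, 95% interval −0.06 to 0.13 in the mutant), nor was Uqcrb, a quinone-binding subunit (0.15 and 0.18, with intervals of −0.04 to 0.34 and −0.01 to 0.37).

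Cycs, the mobile electron carrier between complexes III and IV and a trigger of apoptosis once outside the mitochondrion, rose without overlap. WT arrays ranged from 9.94 to 10.31 (median 10.21) at basal and from 10.42 to 10.73 (median 10.60) after learning (0.43, SE 0.0811, adjusted p = 6.43e-05). Mutant arrays ranged from 9.81 to 10.35 (median 10.24) and from 10.40 to 10.82 (median 10.56), a rise of 0.40 (adjusted p = 0.000146).

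Complex IV held 3 of the 4 falls. On the probes used, its Cox8a had the largest rise of the 47 genes in WT and its Cox6c in the mutant. Of its 10 general subunits, 7 rose and 2 fell in each genotype, and the median differences were 0.44 in WT and 0.46 in the mutant. Cox8a, a small membrane subunit, measured 9.74 to 10.30 (median 10.16) in WT basal and 10.71 to 11.08 (median 10.89) in WT learning arrays, a rise of 0.78 (SE 0.0656, 1.71-fold, adjusted p = 6.64e-11). In the mutant it rose by 0.73 (adjusted p = 2.38e-10), from 10.09 to 10.35 (median 10.23) to 10.89 to 11.03 (median 10.95). Cox6c, another small membrane subunit, rose by 0.76 in WT (1.69-fold, adjusted p = 4.59e-11) and 0.77 in the mutant (adjusted p = 3.07e-11). Its WT arrays lay between 10.42 and 10.95 (median 10.77) at basal and between 11.37 and 11.60 (median 11.51) after learning, so that basal and learning arrays were well separated. The other subunits that rose were Cox7b (0.66 and 0.67 in WT and mutant), Cox7a2 (0.53 and 0.45), the supercomplex factor Cox7a2l (0.44 and 0.48), Cox5a (0.43 and 0.46) and Cox6b1 (0.25 and 0.24).

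Cox4i1 and Cox5b, nuclear-encoded subunits that regulate the enzyme, had less RNA after learning. Cox5b measured 11.02 to 11.32 (median 11.18) in WT basal and 10.91 to 11.06 (median 10.98) in WT learning arrays, a fall of −0.20 (SE 0.0432, 0.872-fold, adjusted p = 0.000371). In the mutant it measured 11.08 to 11.32 (median 11.22) and 10.94 to 11.12 (median 11.04), a fall of −0.17 (adjusted p = 0.00146). The groups overlapped in both genotypes. Cox4i1 fell by −0.19 in the mutant (adjusted p = 0.000613), from 10.65 to 10.77 (median 10.70) to 10.40 to 10.62 (median 10.51), without overlap. In WT, Cox4i1 arrays went from 10.49 to 10.70 (median 10.66) to 10.42 to 10.69 (median 10.49), with overlap and a fall of −0.13 (adjusted p = 0.0206). The WT call of Cox4i1 was lost in 4 of 12 fits without 1 WT array (basal 2 or 5, learning 1 or 5), with an adjusted p of up to 0.0567. Each fall is smaller than the rises of Cox8a and Cox6c, and its sign held in all of these fits. Cox6a1 was not called (0.13 in WT, adjusted p = 0.101; 0.03 in the mutant, 95% interval −0.10 to 0.17).

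**Figure D2:**
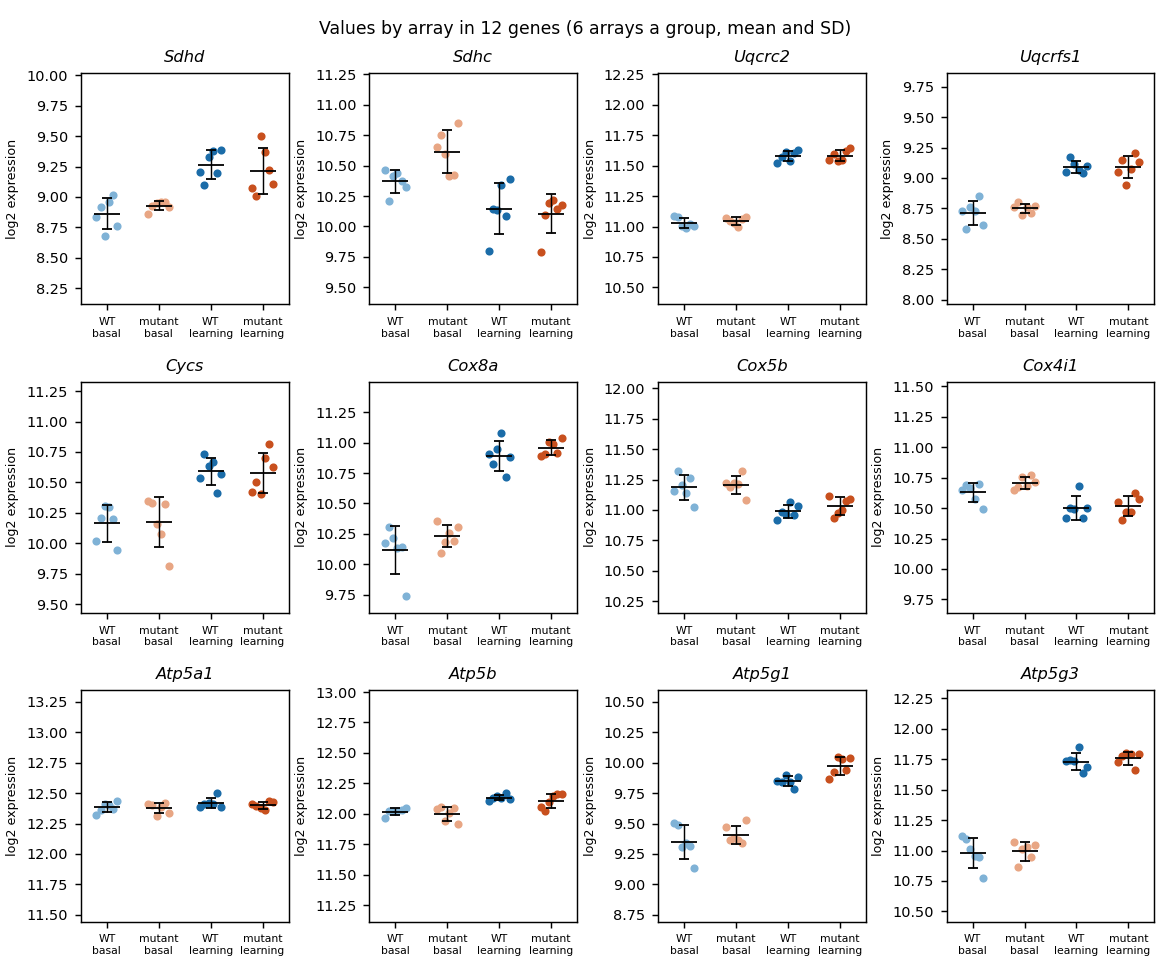
Log2 expression of 12 genes on each array (points; 6 arrays a group), with the group mean and SD in black; every panel spans the same range of log2 units. Uqcrc2, Cox8a, Atp5g1 and Atp5g3 separate by state in both genotypes, Sdhc, Cox5b and Cox4i1 are lower after learning, and Atp5a1 stays between 12.31 and 12.50 on all arrays.

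The 7 isoforms of complex IV known from muscle, lung or testis were dim, with group medians from 4.47 to 6.86, against a range of 6.16 to 6.30 in the medians of the arrays; Cox4i2 lay above that range on every array. Cox7a1, the heart and skeletal muscle form of subunit VIIa, measured 6.25 to 6.42 (median 6.30) in WT basal and 6.52 to 6.76 (median 6.72) in WT learning arrays. It rose by 0.37 in WT (adjusted p = 2.58e-05) and 0.28 in the mutant (adjusted p = 0.000733). Cox7b2, a form known from testis, rose by 0.33 in WT (adjusted p = 0.00108) and 0.45 in the mutant (adjusted p = 2.58e-05). Cox4i2, the lung form of subunit IV, fell with its ubiquitous relative Cox4i1, by −0.18 in WT (adjusted p = 0.0385) and −0.23 in the mutant (adjusted p = 0.00808). The WT call of Cox4i2 was lost in 7 of 12 fits without 1 WT array (basal 1, 2, 5 or 6, learning 1, 2 or 4), without WT basal arrays 4 to 6 (adjusted p = 0.0857), with array weights (adjusted p = 0.0514) and with a replicate block (adjusted p = 0.0537). Cox6b2, the testis form of subunit VIb, rose in the mutant (0.30, adjusted p = 0.019; lost without basal array 2 or 5 or learning array 1) and differed by 0.16 in WT (adjusted p = 0.211). The muscle forms Cox6a2 and Cox8b and the testis form Cox8c were not called, with differences between −0.01 and 0.17. The deposited values do not show whether signals this low lie above background.

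In ATP synthase, the largest rises in both genotypes on the probes used were those of Atp5g1, Atp5g2 and Atp5g3 of the Fo part. In Fo and peripheral stalk, 9 of 12 genes rose in WT and 10 in the mutant, 0 fell, and the median differences were 0.24 and 0.23. In F1, 2 of 5 rose in each genotype, with medians of 0.04 and 0.11; the difference between the 2 parts was not tested. The c ring, which turns as protons pass, is encoded by Atp5g1, Atp5g2 and Atp5g3, whose mature proteins are the same. Atp5g3 measured 10.77 to 11.12 (median 10.98) in WT basal and 11.64 to 11.85 (median 11.73) in WT learning arrays, a rise of 0.75 (SE 0.0458, 1.68-fold, adjusted p = 9.96e-14). In the mutant it measured 10.86 to 11.07 (median 11.02) and 11.66 to 11.80 (median 11.78), a rise of 0.76 (adjusted p = 5.88e-14). Atp5g1 rose by 0.50 in WT (adjusted p = 1.59e-09) and 0.57 in the mutant (adjusted p = 1.46e-10). Atp5g2, whose promoter with the NRF1 letters is printed above, rose by 0.44 (adjusted p = 3.04e-06) and 0.51 (adjusted p = 3.31e-07). On the probes used, all 3 genes of the c ring thus separated by state without overlap in both genotypes. The other Atp5g2 probes rose by 0.40 and 0.36 in WT, where basal and learning arrays overlapped.

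The small membrane subunits Atp5mpl, Atp5md, Atp5k and Atp5l rose by 0.24 to 0.38 in WT and 0.21 to 0.38 in the mutant. Atp5j2, another of them, rose in the mutant (0.18, adjusted p = 0.0317) and differed by 0.16 in WT (adjusted p = 0.0524). In the peripheral stalk, which holds F1 still, Atp5o rose by 0.22 and 0.13 and Atp5h by 0.13 and 0.14. On the probes used, Atp5pb (0.05 and 0.03) and Atp5j (0.05 and 0.03) were not called. Some of these calls rest on few arrays. In the mutant, that of Atp5j2 was lost without basal array 2 or learning array 1, 3 or 6, that of Atp5k without basal array 2 or learning array 3 or 5, and that of Atp5o without basal array 2, 4 or 5 or learning array 1, 5 or 6, with an adjusted p of up to 0.112. The Atp5j2 call was also lost with a second quantile normalisation (adjusted p = 0.0943) and without the mean-variance trend (adjusted p = 0.0512). In WT, that of Atp5h was lost without basal array 6. In F1, Atp5d, a subunit of the central stalk, rose by 0.28 in WT (adjusted p = 5.59e-06) and 0.27 in the mutant (adjusted p = 7.2e-06). Atp5b, the catalytic subunit, measured 11.96 to 12.04 (median 12.02) in WT basal and 12.10 to 12.17 (median 12.13) in WT learning arrays, a small rise of 0.12 (1.08-fold, adjusted p = 0.00127), with 0.11 in the mutant (adjusted p = 0.00307). Its partner Atp5a1 differed by 0.03 (95% interval −0.02 to 0.09) and 0.02 (−0.03 to 0.08), and the rotor subunit Atp5c1 by 0.04 (−0.02 to 0.11) and 0.01 (−0.06 to 0.07). For Atp5a1 and Atp5c1 these intervals leave out rises of the size seen in the c ring. Atp5e, a small central stalk subunit with the widest spread between arrays of the 47 genes (pooled SD within groups 0.21), differed by −0.07 (−0.29 to 0.15) and 0.16 (−0.06 to 0.37).

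The choice of probe did not turn a direction. Of the 47 genes, 34 had 1 probe and 13 had more; all 22 of their other probes had the sign of the probe used, in WT and in mutant mice. The second Cox5b probe fell by −0.25 (WT) and −0.22 (mutant). The second Cox6c probe rose by 0.57 and 0.54. The dimmest Cycs probe rose by 0.88 and 0.78, and the second Cox7b probe by 0.70 and 0.80. Over all probes of the 47 genes, the largest rise was that of this Cycs probe in WT and this Cox7b probe in the mutant. Some calls did depend on the probe (limma, adjusted over all 35511 probes). The other Atp5pb probe rose by 0.10 in WT (adjusted p = 0.0474) and 0.13 in the mutant (adjusted p = 0.0169). The dimmest Uqcrb probe rose by 0.24 in the mutant (adjusted p = 0.0451). The second Cox7a2l probe was called in neither genotype (0.25, adjusted p = 0.0809, and 0.10, adjusted p = 0.533). The second Uqcr11 probe was not called in WT (0.25, adjusted p = 0.111). Several of these genes have processed copies elsewhere in the genome, and which copy a probe reads was not tested. The 3 probes that name Cox7c beside another gene differed by 0.05 to 0.19 in WT and by 0.00 to 0.21 in the mutant. Uqcrh, the hinge protein of complex III that was left out for its position, fell by −0.18 in WT (adjusted p = 0.00386) and −0.21 in the mutant (adjusted p = 0.000706).

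Genes that serve these complexes were taken from lists chosen for this work. Of the assembly factors of complexes II to V, 31 of 36 were measured. In WT 18 rose and 0 fell (58.1% higher, against 25.1% of all genes). In the mutant 16 rose and 2 fell (51.6%, against 22.6%). Among genes with a mean above the median of all genes, 35.7% were higher in WT and 32.7% in the mutant. Sdhaf4, which helps the flavoprotein of complex II find its partner, rose by 1.31 in WT (adjusted p = 1.65e-13) and 1.38 in the mutant (adjusted p = 4.62e-14), more than any of the 47 subunits. Coa6, a complex IV copper factor, rose by 0.75 and 0.73. Coa7, also for complex IV, and Lrpprc, which stabilises mitochondrial mRNA, fell in the mutant by −0.20 (adjusted p = 0.0331) and −0.09 (adjusted p = 0.0487). Of 20 regulators of mitochondrial gene expression 18 were measured. In WT 7 rose and 6 fell (38.9% and 33.3%), in the mutant 5 rose and 6 fell (27.8% and 33.3%), shares near those of the brighter genes, which have a mean above the median of all genes (35.7% and 29.7% in WT, 32.7% and 31.1% in the mutant). Ssbp1, which binds single-stranded mitochondrial DNA, rose by 0.62 and 0.58, and Gabpa, an ETS factor, by 0.46 and 0.42. The mitochondrial DNA polymerase Polg fell by −0.31 and −0.36, the mitochondrial RNA polymerase Polrmt by −0.20 and −0.19, and the transcription factor Yy1 by −0.17 and −0.21. Of 14 carriers and kinases of the ATP exchange 11 were measured, with 8 higher and 1 lower in each genotype (72.7% and 9.09%). Of all genes 25.1% were higher in WT and 22.6% in the mutant, and of the brighter genes 35.7% and 32.7%. The ADP/ATP carrier Slc25a5 rose by 0.65 and 0.67 and Slc25a14, a carrier of the uncoupling protein family, by 0.57 and 0.55, while the cytosolic creatine kinase Ckb fell by −0.16 and −0.19.

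In 2 other mitochondrial gene families, too, more genes were called higher than lower. Of 43 complex I genes, 34 were higher and 1 lower in WT (median 0.33), and 33 higher and 2 lower in the mutant (0.31). Of 77 mitochondrial ribosomal proteins, 52 were higher and 4 lower in WT (0.24), and 49 higher and 3 lower in the mutant (0.26). The shares called higher in WT and mutant were 79.1% and 76.7% for complex I and 67.5% and 63.6% for the mitochondrial ribosome. Of 67 cytosolic ribosomal proteins, 26 were higher and 9 lower in WT (0.13), and 31 higher and 11 lower in the mutant (0.13); the shares called higher, 38.8% and 46.3%, stand beside 35.7% and 32.7% of the brighter genes. The differences between complexes II to V and these families were not tested.

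**Figure D3:**
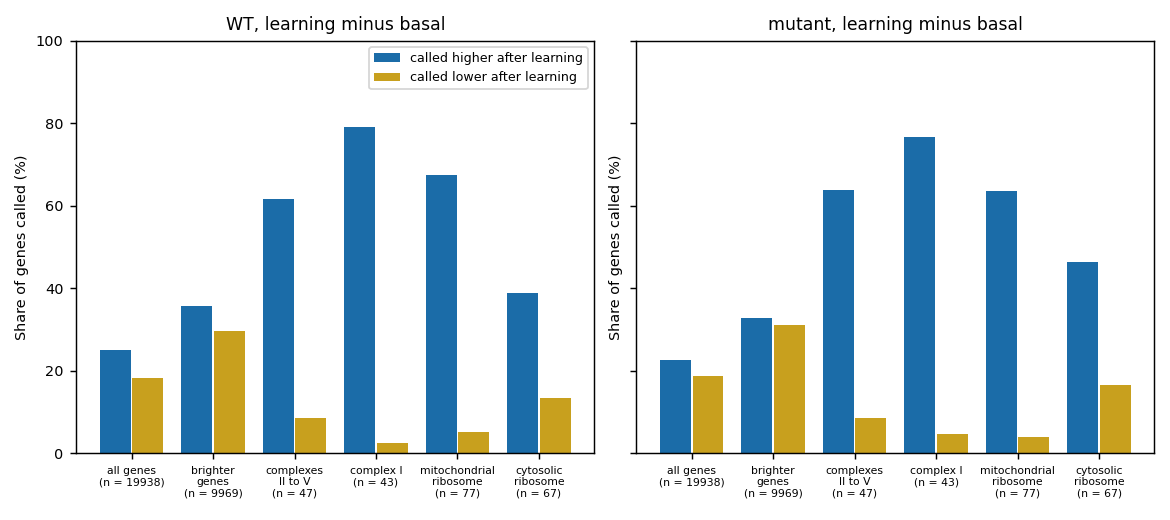
Share of genes called higher (blue) or lower (yellow) after learning in WT (left) and mutant mice (right), for all genes tested, the brighter genes (mean above the median of all genes), the 47 genes of complexes II to V and 3 other families; n is the number of genes. In complexes II to V, 61.7% of genes were higher in WT and 63.8% in the mutant, against 25.1% and 22.6% of all genes.

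No difference between mutant and WT was called in these genes. At basal, 0 of 47 were called between mutant and WT, where limma called 0.1% of all genes, and 2 had an unadjusted p under 0.05 (4.5% of all genes did). After learning 0 were called (0.0752% of all genes) and 2 had an unadjusted p under 0.05 (7.33%), and on the average of both states 0 were called (0.391%) and 5 had an unadjusted p under 0.05 (8.86%). Median differences of the 47, mutant minus WT, were 0.04, 0.02 and 0.03, against 0.01, 0.00 and 0.01 over all genes. These medians rest on few arrays. The basal one moved to 0.00206 without WT basal arrays 4 to 6 and to 0.0036 without WT basal array 6 alone, which also moved the average to 0.02. The median after learning ranged from −9.6e-05 without mutant learning array 5 to 0.04 without mutant learning array 2. It also moved by over 1.5 times when WT learning array 4 (to 0.04), WT learning array 5 (to 0.01) or mutant learning array 4 (to 0.01) was dropped. All 16 choroid plexus markers had a positive mutant minus WT difference at basal and after learning, with 0 called; their part in these medians was not tested.

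The smallest p at basal was that of Sdhc, at 10.41 to 10.85 in mutant and 10.21 to 10.47 in WT arrays, which overlap (0.24, 95% interval 0.07 to 0.41, adjusted p = 0.774). Cox6a1 followed with 0.16 (adjusted p = 0.998) and Cox6b1 with 0.11 (interval −0.01 to 0.23). Among genes lower in the mutant at basal, Cox7b2 differed by −0.13 (interval −0.29 to 0.04), Sdhb by −0.06 and Uqcrb by −0.09. After learning, Atp5g1 measured 9.87 to 10.05 (median 9.98) in mutant and 9.78 to 9.90 (median 9.84) in WT arrays, with overlap (0.12, adjusted p = 0.583). Uqcr11 differed by 0.15 (adjusted p = 0.638), Atp5e by 0.22 (interval −0.00307 to 0.44), Sdhb by −0.07, Cox4i2 by −0.07 and Cyc1 by −0.04. On average over the states, Atp5g1 differed by 0.09 (adjusted p = 0.415), Atp5j2 by 0.12 (adjusted p = 0.422), Cox6b1 by 0.11 (adjusted p = 0.434), Sdhb by −0.06, Cox7b2 by −0.07 and Uqcrb by −0.08. Over the 47 genes the 95% intervals reached from −0.29 (Cox7b2) to 0.41 (Sdhc) at basal and from −0.25 (Cox6a2) to 0.44 (Atp5e) after learning, so larger genotype differences lie outside them. A p that misses the threshold does not show that the genotypes are alike.

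**Figure D4:**
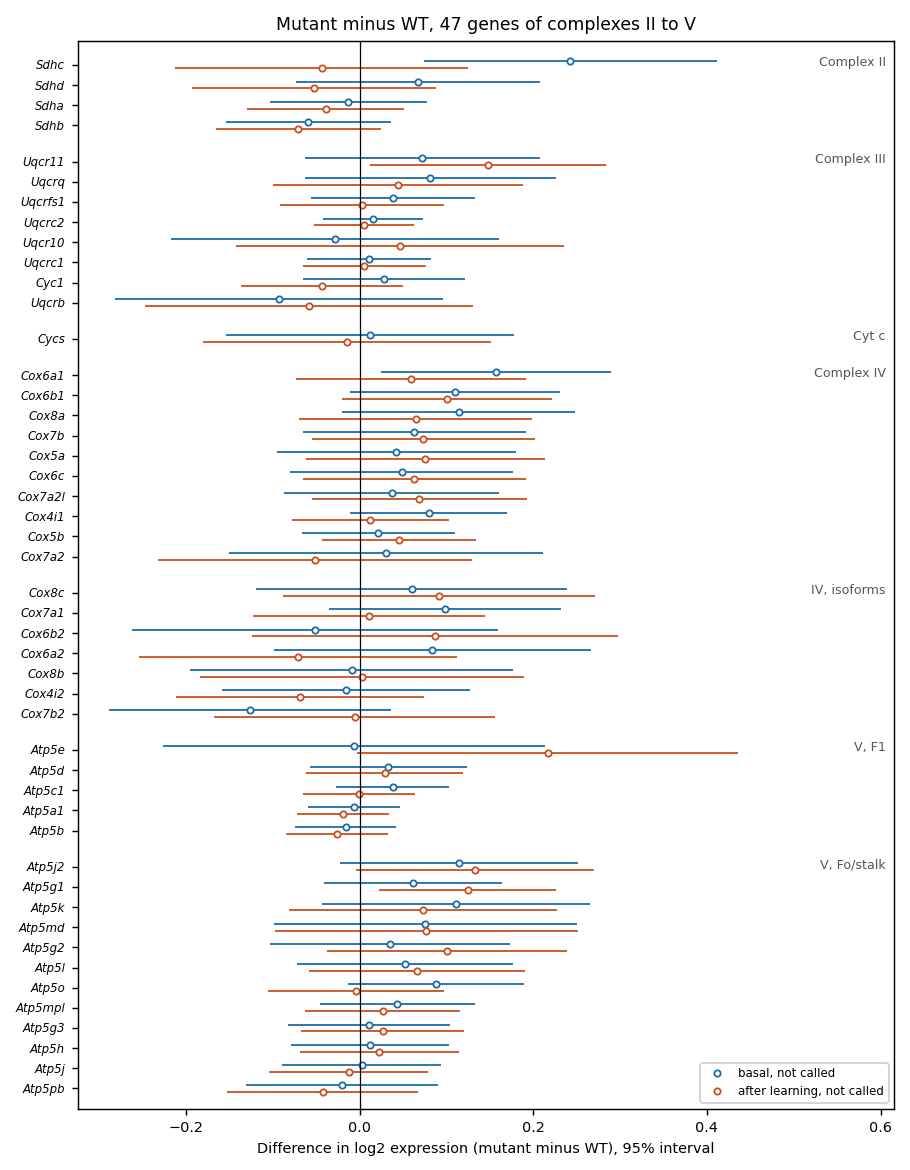
Difference in log2 expression, mutant minus WT, for each of the 47 genes (rows, grouped by complex) at basal (blue) and after learning (orange); points are estimates from 6 arrays a group and lines 95% confidence intervals. All points are open (not called), and most intervals include 0.

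The change with learning was also compared between the genotypes directly. For the interaction, which subtracts the basal genotype difference from the one after learning, limma called 0 of 47 genes, as it did of all genes (0%, with 2.56% at an unadjusted p under 0.05). Among the 47, Sdhc had an unadjusted p under 0.05: it fell further in the mutant by −0.29 (95% interval −0.53 to −0.05, unadjusted p = 0.0204 from limma), which did not hold after adjustment over all genes. Among the other negative values, Atp5o (−0.09) and Sdhd (−0.12) had the smallest p, and Atp5e (0.22), Cox6b2 (0.14) and Cox7b2 (0.12) had those among the positive values, each with an interval that includes 0. The 3 genes called in 1 genotype, Sdha, Atp5j2 and Cox6b2, had interactions of −0.03, 0.02 and 0.14.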

How the data were processed

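Hippocampal RNA was measured on 24 arrays in 4 groups of 6. Values were deposited by the authors as log2 signals from RMA (background correction, quantile normalisation and summary of each transcript cluster), per the submitters' processing notes; the version of RMA and a genome build are not given in the sources used. Quantile normalisation makes array distributions equal before the summary step, so a shift of all genes would not be seen. The deposited values come after that step, and their array medians still lay between 6.16 and 6.30. The table has 35511 probes: 21789 carry 1 gene symbol in the platform annotation, 1621 several and 12101 none. Probes with 1 symbol were used, with the brightest probe of each gene (19938 genes), 0 missing values and no filter on dim genes.

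In R 4.3.3, limma 3.58.1 fitted 4 group means over all arrays (20 residual degrees of freedom), with eBayes and a mean-variance trend. Genotype (mutant minus WT) was compared at basal, after learning and on average, state (learning minus basal) in each genotype, and their interaction, which makes 6 comparisons. P values are two-sided, Benjamini-Hochberg adjusted across the 19938 genes, and called under 0.05; SE and 95% intervals use the moderated spread. The number of arrays limits the precision, and where arrays share a source that the labels do not name, p-values measure only the spread between arrays. The fit was tested on simulated data.

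Named genes were Uqcrc2, Atp5g3, Cox5b, Cox4i1 and Sdhc, up to 2 called genes per role and pathway list in each direction with the smallest p, where 0 were called the 3 smallest p in each direction, and genes among these with an outlying array; all other genes were named after their values were seen. The members and gene lists were chosen with earlier results of these data known. Alternatives covered scaling, a filter on dim genes, probe choice, the trend, array weights, the groups fitted, left-out arrays, a replicate block and Uqcrh kept. Promoter windows come from RefSeq; levels were not compared between genes.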

Additional observations from a re-analysis of the deposited data

Results flagged for a closer look

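For outlying arrays, 116 groups of 6 arrays were checked, among them those of 27 named genes and of the median of all 47. An array was flagged where its gap to the nearest other array exceeded the Dixon critical value. There were 12 such arrays, where chance gives about 1 in 20 groups. WT basal array 6 stood lowest of its group in the median of the 47 genes (9.61, others 9.91 to 10.07), Atp5d (10.95, others 11.14 to 11.22), Cox6a1 (9.89, others 10.24 to 10.41) and Cox8a (9.74, others 10.13 to 10.30). Without it, learning minus basal in WT stayed called for Atp5d and Cox8a, with the median of the 47 at 0.18 in WT.

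In WT basal mice, array 1 was low for Atp5b (11.96, others 12.02 to 12.04) and array 5 high for Sdhb (9.29, others 9.07 to 9.14). In WT learning mice, array 4 was high for Cox4i1 (10.69, others 10.42 to 10.50) and array 6 low for Uqcrb (10.33, others 10.61 to 10.70). In mutant learning mice, array 2 was low for Atp5e (7.91, others 8.49 to 8.67) and Uqcr11 (8.30, others 8.43 to 8.49), array 1 was low for Sdhc (9.79, others 10.09 to 10.21) and array 5 high for Cox7b2 (5.05, others 4.78 to 4.87).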

How the results depend on the processing

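For the count of the 47 genes called and their median difference in each of the 6 comparisons, every alternative kept the direction of a called value and stayed within the limits of 1.5 times the count or 1 SD of the median. That SD, between arrays of a group, is 0.11. It exceeds the median differences of the genotype comparisons and the interaction, so for these the limit on the median says little. Without 1 array, 30 to 34 genes were called for learning in WT (median 0.18 to 0.25) and 30 to 36 in the mutant (median 0.21 to 0.27), and 0 in the genotype comparisons and the interaction. Across the other alternatives 28 to 34 were called in WT and 31 to 36 in the mutant. Of the results on named genes, 7 lost a call under at least 1 alternative (Cox4i1, Cox4i2, Sdha and Sdhc in WT, Atp5j2, Atp5o and Cox6b2 in the mutant), 7 gained one, and 0 reversed. The median genotype differences, all near 0, ranged from 0.0036 to 0.05 at basal, from −9.6e-05 to 0.04 after learning and from 0.02 to 0.04 on average without 1 array.

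The replicate numbers do not pair the arrays: same-numbered arrays correlated between −0.296 and 0.263, with at most 2 of 6 pairs above 0.1. With a replicate block 32 genes were called in WT (29 higher and 3 lower) and 36 in the mutant (32 and 4), and 0 in the other comparisons. Cox4i2 lost its WT call under the block (adjusted p = 0.0537), and Sdha (adjusted p = 0.0216) and Uqcrb (adjusted p = 0.038) gained one in the mutant.

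Signal over background is not given in the deposited values, which limits the 7 dim isoforms of complex IV most.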

Other observations

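Among the probes that the choice of symbols did not take in are those for genes of the mitochondrial DNA. COX2, a catalytic subunit of complex IV encoded there, was lower after learning, by −0.15 in WT (SE 0.0469, adjusted p = 0.0117; arrays 13.30 to 13.48 at basal and 13.18 to 13.29 after learning, without overlap) and −0.17 in the mutant (adjusted p = 0.00388; arrays 13.15 to 13.51 and 13.08 to 13.33, with overlap). ND3, a subunit of complex I from the same genome, differed by −0.06 in WT (95% interval −0.17 to 0.05) and −0.01 in the mutant (−0.12 to 0.10). Neither was called between the genotypes. Both genes were looked up after the values of the 47 were seen. Each has 2 probes, and only the brightest is described here. Which copy of the sequence a probe reads was not tested.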
